A study of Mus musculus with 24 samples.

Results

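Integrins are adhesion receptors made of an alpha and a beta chain, and the 7 genes described here encode chains found on lymphocytes and other white blood cells. Itgal and Itgb2 together form LFA-1, which binds the ICAM proteins and holds B cells to follicular cells, T cells and vessel walls. Itgam (CD11b) and Itgax (CD11c) pair with the same beta chain, Itgb2, and are best known from myeloid and dendritic cells. Itga4 pairs either with Itgb1, to form a receptor for VCAM and fibronectin, or with Itgb7, to form a receptor for MAdCAM on the vessels of the gut and its lymphoid tissue.

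The 7 genes were taken by symbol from the deposited count tables, which list 27179 genes. The tables hold RNA-seq counts of 24 libraries of mouse lymph node B cells (C57BL/6), from 4 genotypes and 3 stages with 2 biological replicates a group. The control mice were Cd23T/+ and carried a Cre transgene driven by Cd23 regulatory sequences, which act in B cells from the transitional stage on. PU.1 cKO mice were Spi1fl/fl Cd23T/+ and lose exon 5 of Spi1, the gene of PU.1, in these B cells. SpiB KO mice were Spi1fl/fl Cd23+/+ Spib-/-, so they carried floxed Spi1 but no Cre, and lacked SpiB in every cell. PU.1 SpiB DKO mice (DKO below) were Spi1fl/fl Cd23T/+ Spib-/-. The study's read coverage showed that the floxed exon was partly retained in naive DKO cells, so these do not have the full loss of PU.1. One stage was naive cells, the others were 48 h in culture with IL-4 plus either CD40L or LPS, and the study sorted CD3- B220+ CD138- cells. PU.1 and SpiB are related Ets family transcription factors, and PU.1 is well known for driving integrin genes in myeloid cells.

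The counts totalled 14231188 to 18194629 reads in the naive libraries, 9598674 to 61640683 in the CD40L + IL-4 libraries and 22757630 to 73658850 in the LPS + IL-4 libraries. The B cell markers Cd79a, Cd79b, Ms4a1, Pax5 and Cd22 were present in each library. Spib was between 8.87 and 107 CPM (counts scaled to the size of each library) in the SpiB KO and DKO libraries, against 170.3 to 2325 CPM in the others. Spi1 is counted over the whole gene, so that transcripts without exon 5 still count. It fell in PU.1 cKO at each stage, by 1.54, 1.24 and 0.63 on the log2 scale in naive, CD40L + IL-4 and LPS + IL-4 cells. In DKO it fell by 0.63 and 1.73 in naive and CD40L + IL-4 cells, but in LPS + IL-4 its log2 fold change was -0.11 (edgeR adjusted p = 0.448), at 58.8 and 54.8 CPM against 69.1 and 60.0 in control. In naive cells Spi1 was 0.92 higher in DKO than in PU.1 cKO on the log2 scale (edgeR adjusted p = 5.71e-04). The whole-gene count therefore does not check the label of the LPS + IL-4 libraries labelled PU.1 SpiB DKO for the loss of PU.1. For DKO cells of both cultures, the study's read coverage showed that the floxed exon was efficiently deleted.

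Levels below are CPM on one scale for the 24 libraries (TMM normalization), given as replicate 1 and replicate 2. Fold changes are log2 values from edgeR's quasi-likelihood test, fitted within each stage. Their standard errors (SE) were computed as the absolute log2 fold change over the square root of the test's F value. Adjusted p-values are Benjamini-Hochberg values over every gene tested. Following the study, a gene was called differentially expressed (DE) at an adjusted p under 0.15 with a fold change above 1.5 and a mean deposited log2 RPKM above 0 at that stage. Since 2 libraries against 2 leave an exact permutation test (two-sided) no p smaller than 0.333, the calls rest on the spread shared across genes. The comparisons with control at a stage share the same pair of control libraries.

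In control B cells the order of the integrin chains differed between stages. Per length of transcript, naive control cells held most Itgb7 (176 ± 7.44 RPKM, SD, n = 2), then Itgb2 (69.3 ± 5.94), Itgal (51.9 ± 2.50), Itga4 (27.7 ± 1.43), Itgb1 (16.9 ± 1.70), Itgax (3.11 ± 1.73) and Itgam (0.637 ± 0.0850). No neighbours in that order overlapped between libraries. After CD40L + IL-4 the order was Itgb2 (60.1 ± 5.01 RPKM), Itgal (29.0 ± 3.17), Itgb1 (27.6 ± 2.39), Itgb7 (26.2 ± 6.67), Itga4 (5.96 ± 0.627), Itgam (0.704 ± 0.101) and Itgax (0.110 ± 0.0557). Itgal, Itgb1 and Itgb7 did not differ beyond their spread there. After LPS + IL-4 the order was Itgb1 (74.3 ± 10.1 RPKM), Itgal (65.5 ± 0.383), Itgb2 (34.8 ± 0.0948), Itgb7 (7.13 ± 1.83), Itga4 (4.34 ± 0.380), Itgam (0.139 ± 0.0608) and Itgax (0.0210 ± 0.0192). Itgb1 and Itgal differed there by less than the spread of Itgb1, and the deposited log2 RPKM put Itgal first. Itgb7 thus moved from the highest to the fourth of the 7, and Itgb1 from the fifth to the first.

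**Figure D1:**
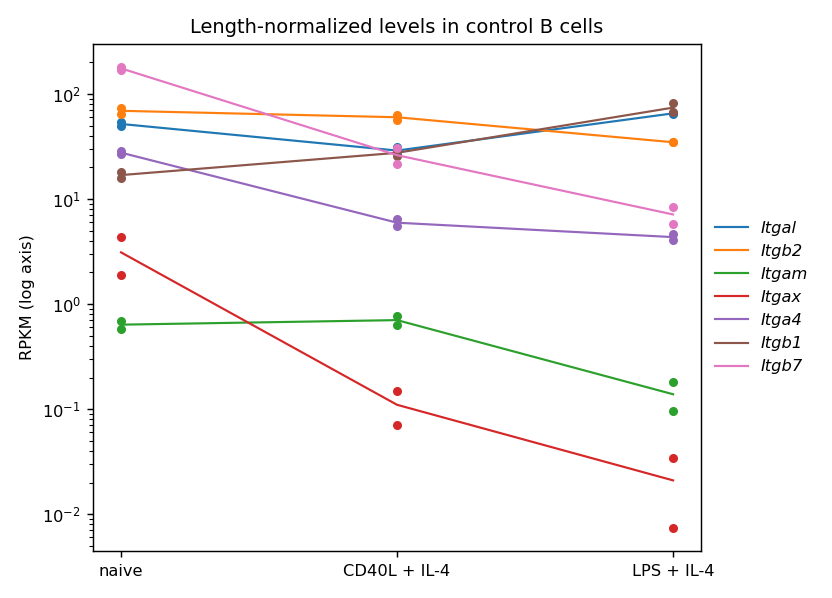
Length-normalized level (RPKM, log axis) of the 7 genes in the control libraries at each of 3 stages, with each library as a point and the mean of 2 libraries as a line. Itgb7 runs from 176 down to 7.13 RPKM and Itgb1 from 16.9 up to 74.3, and the lines cross.

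The stage comparison in control cells was tested in one fit of all 24 libraries, with a gene called at an adjusted p under 0.15 and a fold above 1.5. Between CD40L + IL-4 and naive, 5 of the 7 were called (1 higher, 4 lower), where 48.8% of all genes tested were. Between LPS + IL-4 and naive, 6 of 7 were called (1 higher, 5 lower), against 63.9% of all genes. Between both cultures, 6 of 7 were called (2 higher in LPS + IL-4, 4 lower), against 41.2%. So large a share of all genes moved between stages that these counts alone do not set the integrins apart, and stage cannot be told apart from any batch in which a stage was prepared. The median log2 fold change of the 7 was -0.84, -2.28 and -0.79 in these comparisons, where the median of all genes was 0.00, 0.01 and 0.00.

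Itgb7 fell most among the well expressed chains. It stood at 472 and 501 CPM in naive control cells, 59.5 and 85.6 CPM after CD40L + IL-4 and 23.3 and 16.2 CPM after LPS + IL-4, and no groups overlapped. Its log2 fold change was -2.75 (SE 0.28, edgeR adjusted p = 1.09e-07) in CD40L + IL-4 and -4.63 (SE 0.30, edgeR adjusted p = 1.05e-10) in LPS + IL-4. Itga4, its partner, went from 401 and 373 CPM in naive cells to 77.1 and 89.5 CPM in CD40L + IL-4 and 64.5 and 57.0 CPM in LPS + IL-4, log2 fold changes of -2.22 (edgeR adjusted p = 8.57e-09) and -2.67 (edgeR adjusted p = 2.93e-10). Itgb1, the other partner of Itga4, rose instead, from 73.9 and 64.2 CPM to 106 and 119 CPM and to 274 and 332 CPM. Its log2 fold change was 0.70 (edgeR adjusted p = 6.88e-05) in CD40L + IL-4 and 2.13 (edgeR adjusted p = 2e-11) in LPS + IL-4.

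The LFA-1 chains parted between the cultures. Itgal stood at 329 and 353 CPM in naive control cells, fell to 205 and 176 CPM in CD40L + IL-4 (log2 fold change -0.84, edgeR adjusted p = 4.09e-06) and reached 428 and 432 CPM in LPS + IL-4, 1.18 above CD40L + IL-4 on the log2 scale (edgeR adjusted p = 1.81e-07). The rise of Itgal from naive to LPS + IL-4, of 0.34, was below the fold threshold. Itgb2 took the other course, with 224 and 199 CPM in naive cells, 173 and 194 CPM in CD40L + IL-4 and 106 CPM in each LPS + IL-4 library, a log2 fold change of -0.99 against naive (edgeR adjusted p = 4.48e-07). The ratio of Itgal to Itgb2 per length therefore ran from 0.682 and 0.825 in the naive control libraries to 0.420 and 0.551 in CD40L + IL-4 and 1.88 and 1.89 in LPS + IL-4.

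Itgam and Itgax were low in every culture. Itgam had 46 and 39 counts in the naive control libraries, 46 and 31 in CD40L + IL-4 and 22 and 27 in LPS + IL-4, where sequencing was deeper, and its log2 fold change in LPS + IL-4 was -2.28 against naive (SE 0.61, edgeR adjusted p = 0.00259). Itgax had 273 and 122 counts in naive control cells, but 4 and 7 in CD40L + IL-4 and 4 and 2 in LPS + IL-4. The fitted log2 changes, -4.85 and -7.52, depend at such counts on the prior count of the fit. The fall between both cultures (-2.67, edgeR adjusted p = 0.0408) was lost without CD40L + IL-4 control replicate 2 (adjusted p = 0.283), without LPS + IL-4 control replicate 2 (adjusted p = 0.307) and with voom and limma (adjusted p = 0.155).

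**Figure D2:**
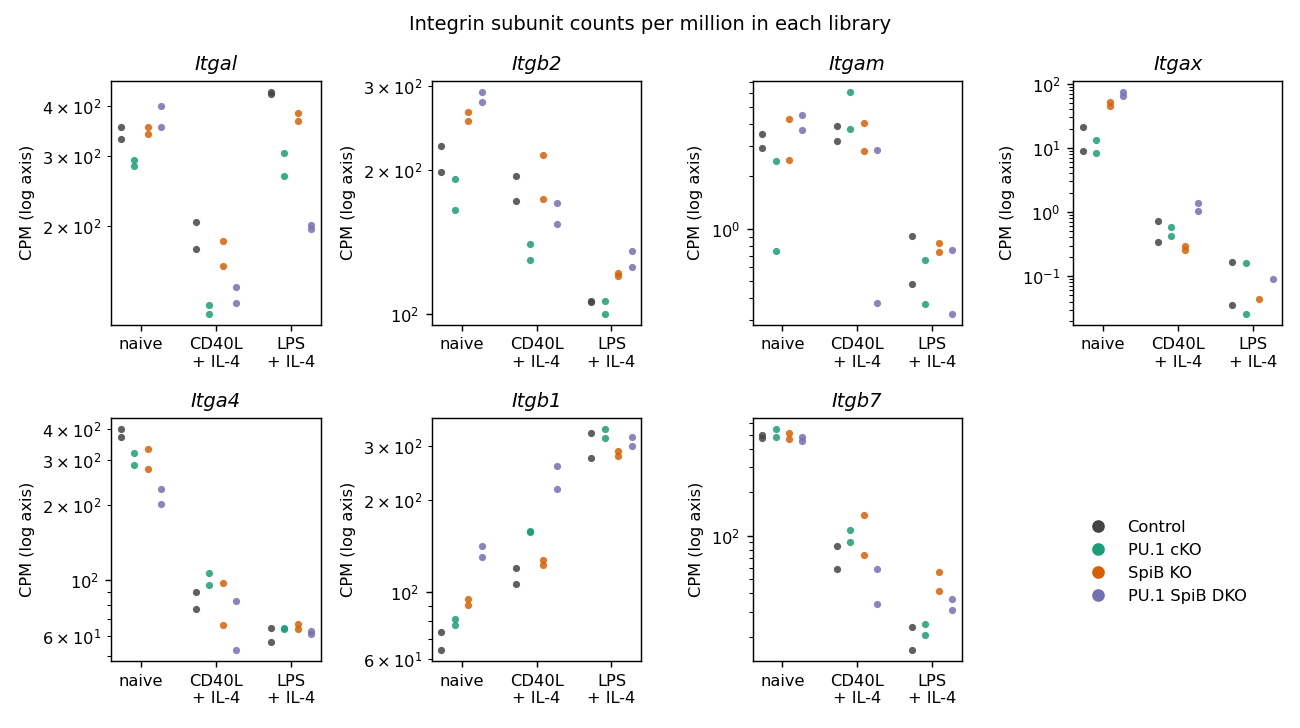
CPM (log axis) of each integrin gene in each of the 24 libraries, by stage and coloured by genotype, with 2 points a group. The 2 Itgax libraries with 0 counts, in LPS + IL-4, cannot be drawn on a log axis. Itgax is between 8.26 and 74.05 CPM in naive cells and below 1.5 CPM in each culture, and the control and DKO points of Itgal do not overlap in LPS + IL-4.

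Among genotypes, DKO held most of the DE calls against control. Itgb1 was called there at 2 stages, and Itgax, Itga4, Itgal and Itgb7 at 1 each. In naive cells, 3 of 7 were DE in DKO against control (Itgax and Itgb1 higher, Itga4 lower), where 14.1% of the 12500 genes tested were DE. In SpiB KO 1 of 7 was DE (Itgax), against 6.35%. In PU.1 cKO none was DE, against 8.4%, with 3 at an unadjusted edgeR p under 0.05 (Itgal, Itgb2 and Itga4) and none by DESeq2 or voom. DKO differed from PU.1 cKO in 3 of 7 (Itgb2, Itgax and Itgb1, all higher), against 7.21%. It differed from SpiB KO in none by edgeR, against 1.97%, with 2 at an unadjusted p under 0.05 (Itga4 and Itgb1), none by DESeq2 and 1 by voom (Itgb1).

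In CD40L + IL-4, 1 of 7 was DE in DKO (Itgb1, higher), where 13.7% of all genes were. In PU.1 cKO 1 of 7 was DE (Itgal, lower), against 9.36%. In SpiB KO none was, by edgeR, DESeq2 or voom, and none at an unadjusted p under 0.05, where 0.11% of all genes were DE. DKO differed from PU.1 cKO and from SpiB KO in 2 of 7 each (Itgb1 higher, Itgb7 lower), against 3.01% and 11.4%.

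In LPS + IL-4, 6 of the 7 passed the filter on low counts, Itgax being left out. In DKO 2 of 6 were DE (Itgal lower, Itgb7 higher), where 13.6% of all genes were. In SpiB KO 1 of 6 was DE (Itgb7, higher), against 2.29%. In PU.1 cKO none was, against 6.67%, by edgeR, DESeq2 or voom, with Itgal at an unadjusted p under 0.05. DKO differed from PU.1 cKO in 1 of 6 (Itgb7, higher), against 8.1%, and from SpiB KO in 1 of 6 (Itgal, lower), against 8.09%.

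**Figure D3:**
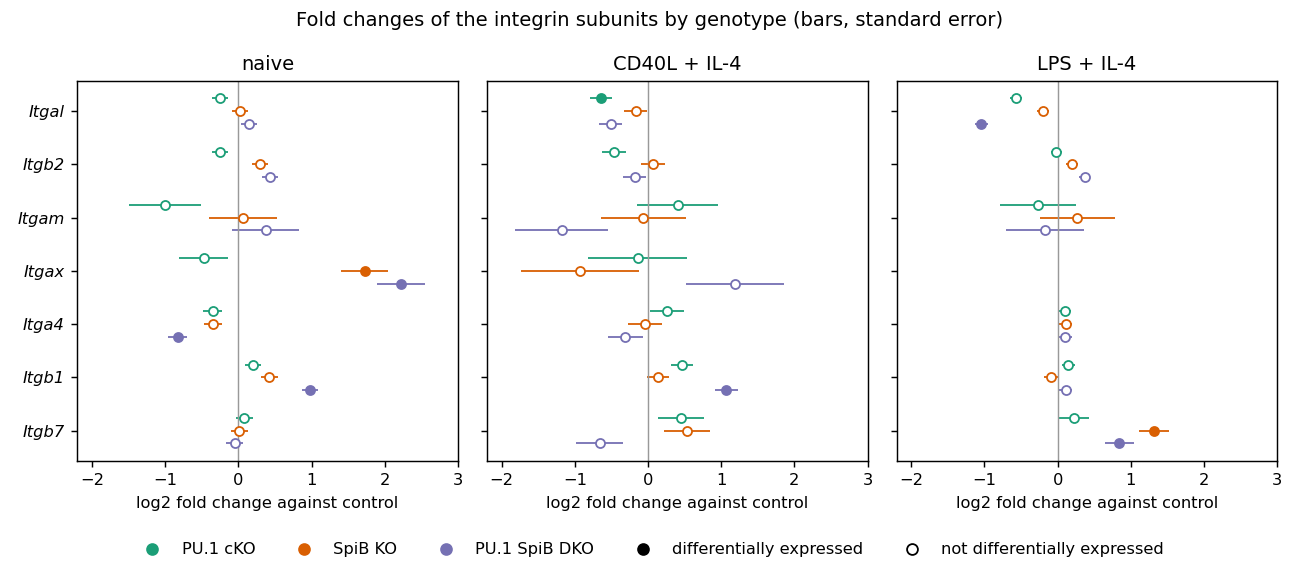
Log2 fold change against control (edgeR) of each gene in PU.1 cKO, SpiB KO and DKO at each stage, with standard errors as bars and filled points for genes called DE. Itgax rises in naive SpiB KO (1.73) and DKO (2.22), Itgb1 rises in DKO in naive cells (0.98) and CD40L + IL-4 (1.07), and Itgal falls in DKO in LPS + IL-4 (-1.04).

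Itgal (Entrez ID 16408, chromosome 7 from 127296139 to 127335137 of GRCm38) was lower in cultured cells of both genotypes without PU.1, though not every difference was DE. In LPS + IL-4 it stood at 428 and 432 CPM in control, with PU.1 cKO at 305 and 267, SpiB KO at 383 and 365, and DKO at 197 and 201 CPM. No genotype overlapped another, and DKO was lowest. Its log2 fold change was -1.04 (SE 0.08, edgeR adjusted p = 3.18e-05) in DKO and -0.57 (SE 0.08, edgeR adjusted p = 0.00218) in PU.1 cKO, the latter short of the fold threshold. Without PU.1 cKO replicate 1 the PU.1 cKO value was -0.66 and in a fit of all 24 libraries it was -0.59, and both would be DE. DKO was also below SpiB KO, by -0.84 (edgeR adjusted p = 0.000232). The interaction of both losses, by which the DKO effect departs from the sum of the single ones, was -0.28 (edgeR adjusted p = 0.431). Libraries of LPS + IL-4 that shared a replicate number deviated together, and a block for that number gave an interaction of -0.27, edgeR adjusted p = 0.148.

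After CD40L + IL-4, Itgal stood at 205 and 176 CPM in control, with PU.1 cKO at 121 and 127, SpiB KO at 184 and 159, and DKO at 129 and 141 CPM. Both genotypes without PU.1 lay below control and SpiB KO, with no overlap. The log2 fold change was -0.64 (SE 0.16, edgeR adjusted p = 0.028) in PU.1 cKO. That call was lost without control replicate 1 (adjusted p = 0.155), PU.1 cKO replicate 1 (adjusted p = 0.166) or PU.1 cKO replicate 2 (adjusted p = 0.172), each fit leaving 1 library in a group that is then assumed to vary like the others. In DKO the fold was -0.51 (edgeR adjusted p = 0.0569), short of the threshold. In naive cells Itgal was between 283 and 399 CPM in every library, and no genotype was DE.

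Itgb2 (Entrez ID 16414, chromosome 10 from 77530329 to 77565708), the beta chain that Itgal, Itgam and Itgax share, was highest in naive cells without SpiB. It stood at 224 and 199 CPM in control, with PU.1 cKO at 165 and 192, SpiB KO at 265 and 253, and DKO at 277 and 291 CPM. Both genotypes without SpiB lay above both with it. DKO was above PU.1 cKO by 0.69 on the log2 scale (SE 0.11, edgeR adjusted p = 0.00291), a difference of 0.58, under the fold threshold, without PU.1 cKO replicate 1. Against control its fold of 0.44 (edgeR adjusted p = 0.0217) was short of the threshold. In LPS + IL-4, DKO libraries held 126 and 135 CPM against 106 CPM in each control library, a log2 fold change of 0.37 (edgeR adjusted p = 0.00546), again short of it. In CD40L + IL-4 it was between 130 and 215 CPM, and the PU.1 cKO libraries were lowest (-0.46, edgeR adjusted p = 0.108).

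The 2 chains of LFA-1 thus did not move together in DKO in LPS + IL-4, where Itgal fell and Itgb2 was 0.37 higher on the log2 scale, short of the fold threshold. The ratio of Itgal to Itgb2 per length was 1.88 and 1.89 in control, with PU.1 cKO at 1.33 and 1.24, SpiB KO at 1.48 and 1.39, and DKO at 0.728 and 0.689. Every single-loss library lay between control and DKO.

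Itgax (Entrez ID 16411, chromosome 7 from 128129526 to 128150657) had the largest DE effects between genotypes of the 7, and was DE in naive cells only, in the comparisons of a genotype without SpiB with one that has it. It stood at 20.8 and 9.07 CPM in control, with PU.1 cKO at 13.2 and 8.26, SpiB KO at 52.7 and 45.4, and DKO at 74.05 and 63.6 CPM. The genotypes without SpiB lay above those with it, and the control libraries differed from each other by more than the others did. The log2 fold change was 1.73 (SE 0.32, edgeR adjusted p = 0.0141) in SpiB KO and 2.22 (SE 0.33, edgeR adjusted p = 0.00147) in DKO, and DKO was above PU.1 cKO by 2.70 (edgeR adjusted p = 6.34e-04). With each library left out in turn the SpiB KO value ran from 1.27 to 2.40 and the DKO value from 1.76 to 2.89, and neither call was lost.

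Markers of plasmacytoid dendritic cells (pDC), which carry B220 and CD11c on their surface, moved with Itgax in these libraries. All 6 pDC markers checked (Siglech, Bst2, Ccr9, Klk1, Cox6a2 and Lag3) were DE and higher in both naive genotypes without SpiB (SpiB KO, then DKO), with median log2 fold changes of 2.55 and 2.87, and none was DE in PU.1 cKO. Their summed level was 182 to 319 CPM in control, 236 to 245 CPM in PU.1 cKO, 1099 to 1399 CPM in SpiB KO and 1467 to 1582 CPM in DKO, with none at 0. Itgax was 6.51% and 4.99% of that sum in control, with PU.1 cKO at 5.38% and 3.50%, SpiB KO at 3.77% and 4.13%, and DKO at 4.68% and 4.34%. Against Siglech alone, a lectin of pDC, Itgax was 0.334 and 0.363 in control and between 0.209 and 0.263 in the genotypes without SpiB, while the PU.1 cKO libraries were at 0.371 and 0.193. By both measures the libraries without SpiB lay below the control libraries and within the range of PU.1 cKO.

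Other marker lists moved less evenly. Of 7 conventional dendritic cell markers, 4 were tested in naive cells and 2, Flt3 and Clec9a, were DE and higher in both genotypes without SpiB, with list sums of 13.1 to 29.5 CPM in control and 74.7 to 81.6 CPM in DKO. Of 8 T cell markers, Cd8a, Cd8b1 and Cd4 rose in both, while Cd3e was at or below 0.675 CPM in each naive library. The summed T cell list was 75.5 to 126 CPM in control, rising to 406 to 491 CPM for SpiB KO and 602 to 603 CPM for DKO. The macrophage and monocyte list ran from 55.8 to 104 CPM in control and from 1124 to 1344 CPM in DKO, most of it Ly6c2. Of its 5 tested genes, 3 were DE and higher (Ly6c2, Lyz2 and Ccr2), while Csf1r, another gene of the list, was at or below 1.07 CPM. The NK cell list overlapped (49.8 to 119 CPM in control, 86.6 to 175 CPM in DKO), none of its 5 genes being DE, and the neutrophil list was at or below 0.804 CPM. In bulk RNA, more cells of a type and more RNA per cell cannot be told apart, and the part of pDC or other cells in the rise of Itgax, or of Itgb2 in the same libraries, was not tested.

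**Figure D4:**
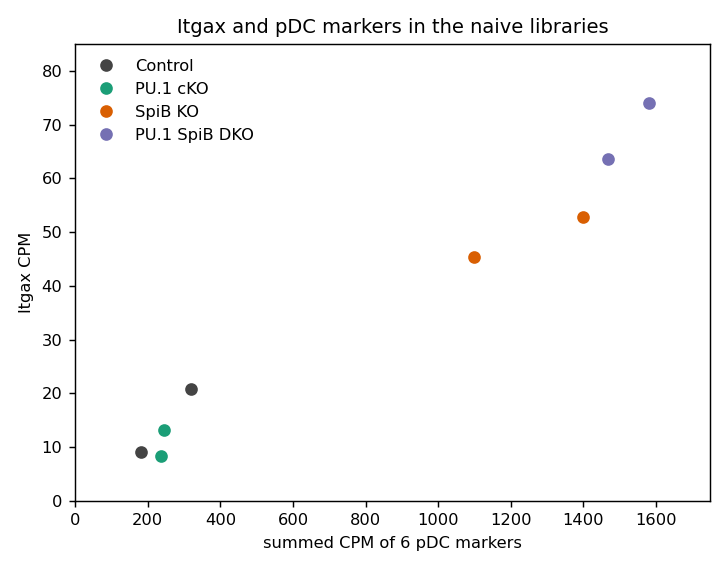
Itgax (CPM) against the summed CPM of 6 pDC markers in the 8 naive libraries, each point a library, coloured by genotype. The 4 libraries with SpiB lie at 182 to 319 CPM of pDC markers and 8.26 to 20.8 CPM of Itgax, and the 4 without it at 1099 to 1582 and 45.4 to 74.05.

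In the cultures the pDC list was low, at 23.97 to 36.4 CPM in CD40L + IL-4 and at 41.6 to 92.0 CPM in LPS + IL-4. In each library of both cultures 1 or 2 of its 6 genes were at 0. Klk1 was at 0 in every one, and Siglech in most libraries of LPS + IL-4, so the higher sum there came from the other genes of the list. Itgax had 3 to 26 counts in CD40L + IL-4. The DKO libraries of CD40L + IL-4 held 1.37 and 1.03 CPM of Itgax against 0.290 and 0.255 CPM in SpiB KO, a log2 difference of 2.11 (edgeR adjusted p = 0.0975) on 13, 11, 3 and 3 counts, which was not DE because its log2 RPKM was below 0. In LPS + IL-4, where the pDC list was higher than in CD40L + IL-4, Itgax had 0 to 6 counts. No count was seen in SpiB KO replicate 1 or DKO replicate 1, which allows up to 0.0476 and 0.0687 CPM on the same scale, for counting error only.

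Itgam (Entrez ID 16409, chromosome 7 from 128062640 to 128118491) was never DE between genotypes. Gm49368, a GENCODE gene that is not in the count tables, shares 68.7% of its exon bases. It had 46 and 39 counts in naive control, with PU.1 cKO at 36 and 11, SpiB KO at 67 and 43, and DKO at 70 and 66. Its largest difference past the adjusted p was between naive DKO and PU.1 cKO, 1.38 on the log2 scale (SE 0.48, edgeR adjusted p = 0.115), in which its mean log2 RPKM below 0 kept it from the DE call. In CD40L + IL-4 the DKO libraries had 27 and 4 counts, so the replicates differed by more than the genotypes. Smaller differences of Itgam were not detectable at this depth.

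Itga4 (Entrez ID 16401, chromosome 2 from 79255426 to 79333114) fell in naive DKO cells, and the single losses lay between DKO and control. It stood at 401 and 373 CPM in control, with PU.1 cKO at 287 and 321, SpiB KO at 277 and 332, and DKO at 200.3 and 232 CPM. The single losses overlapped each other, and DKO lay below all of them. The log2 fold change was -0.83 (SE 0.13, edgeR adjusted p = 0.00174) in DKO, with a range of -0.95 to -0.74 when libraries were left out one by one. It was -0.35 (edgeR adjusted p = 0.126) in PU.1 cKO, short of the fold threshold, and -0.34 (edgeR adjusted p = 0.158) in SpiB KO. After activation no genotype was DE. In CD40L + IL-4 the PU.1 cKO libraries, at 107 and 95.5 CPM, lay above the control libraries (77.1 and 89.5) and the DKO libraries (82.7 and 52.5) without overlap, but the difference of -0.57 between DKO and PU.1 cKO did not pass the test (edgeR adjusted p = 0.330). In LPS + IL-4 all 8 libraries lay between 57.0 and 66.8 CPM. Of the exon bases of Itga4, 8.04% overlap Cerkl on the opposite strand, and the library kit does not keep the strand, and Cerkl had 5 to 110 counts a library.

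Itgb1 (Entrez ID 16412, chromosome 8 from 128685654 to 128733579) rose in DKO in naive and CD40L + IL-4 cells. The study's read coverage showed the floxed exon of Spi1 partly retained in naive DKO, so the naive DKO values are from a partial loss of PU.1. Whole-gene Spi1, which does not measure that loss, was 0.63 below control in naive DKO and 1.54 below it in naive PU.1 cKO (log2). In naive cells Itgb1 stood at 73.9 and 64.2 CPM in control, with PU.1 cKO at 81.4 and 77.8. SpiB KO was at 90.6 and 94.6 and DKO at 141 and 130 CPM, with no genotype overlapping another. Its log2 fold change in DKO was 0.98 (SE 0.11, edgeR adjusted p = 3.44e-04) against control, 0.78 (edgeR adjusted p = 0.00141) against PU.1 cKO and 0.56 (edgeR adjusted p = 0.0365) against SpiB KO, the last below the fold threshold. With voom it was 0.60 and DE. In SpiB KO against control the value was 0.42 (edgeR adjusted p = 0.0573), below it too.

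After CD40L + IL-4, Itgb1 stood at 106 and 119 CPM in control, with PU.1 cKO at 157 and 158, SpiB KO at 122 and 127, and DKO at 259 and 217 CPM. PU.1 cKO lay above control and SpiB KO, and DKO above all. The log2 fold change in DKO was 1.07 (SE 0.15, edgeR adjusted p = 0.00114) against control and 0.94 (edgeR adjusted p = 0.00341) against SpiB KO. Against PU.1 cKO it was 0.61 (edgeR adjusted p = 0.0828), a call that was lost when any one of the 4 libraries was left out (adjusted p from 0.162 to 0.382). In LPS + IL-4 it was between 274 and 342 CPM in all 8 libraries and the genotypes overlapped, with a log2 fold change of 0.11 in DKO (edgeR adjusted p = 0.408).

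Itgb7 (Entrez ID 16421, chromosome 15 from 102215994 to 102233405) was DE in no genotype in naive cells, at 453 to 549 CPM in all 8 libraries, although it was there the highest of the 7 per length. In LPS + IL-4, where it was low, it stood at 23.3 and 16.2 CPM in control, with PU.1 cKO at 24.8 and 20.5, SpiB KO at 41.9 and 56.2, and DKO at 30.7 and 36.5 CPM. Both genotypes without SpiB lay above both with it. Its log2 fold change was 1.32 (SE 0.20, edgeR adjusted p = 0.0119) in SpiB KO, from 1.05 to 1.63 with each library left out, and 0.84 (SE 0.20, edgeR adjusted p = 0.0112) in DKO. The latter fell to 0.57 without control replicate 2, and the call was lost. The difference of 0.62 between DKO and PU.1 cKO (edgeR adjusted p = 0.0574) was lost without PU.1 cKO replicate 2 (0.50, adjusted p = 0.280), without DKO replicate 2 (0.48, adjusted p = 0.221), with voom (0.55) and in a fit of all 24 libraries (0.56, adjusted p = 0.199).

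In CD40L + IL-4, Itgb7 went the other way in DKO, at 58.6 and 33.8 CPM against 59.5 and 85.6 CPM in control, 90.6 and 110.3 CPM in PU.1 cKO and 138 and 73.7 CPM in SpiB KO. The replicates of a genotype were far apart, and DKO lay below all other libraries with no overlap. Against control the log2 fold change of -0.66 was not DE (edgeR adjusted p = 0.205). DKO was below SpiB KO by -1.19 (SE 0.32, edgeR adjusted p = 0.0388) and below PU.1 cKO by -1.11 (edgeR adjusted p = 0.133). The former call was lost without SpiB KO replicate 1 (-0.67, adjusted p = 0.316) or DKO replicate 2 (-0.85, adjusted p = 0.243). The latter was lost without PU.1 cKO replicate 1 (adjusted p = 0.215), PU.1 cKO replicate 2 (adjusted p = 0.414) or DKO replicate 2 (adjusted p = 0.562). The interaction was -1.65 (SE 0.45, edgeR adjusted p = 0.213), on an unadjusted p of 0.00362.

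Markers of plasma cells and of other cells moved in the same cultures. All 4 plasma cell genes tested (Prdm1, Sdc1, Xbp1 and Irf4) were DE and higher in DKO after CD40L + IL-4, with a summed level of 2270 to 2512 CPM against 1177 to 1383 CPM in control. In LPS + IL-4 the sum was 1490 to 1506 CPM in DKO, 1139 to 1254 CPM in PU.1 cKO, 718 to 778 CPM in SpiB KO and 632 to 703 CPM in control. The T cell list summed to 233 to 245 CPM in DKO against 88.6 to 93.1 CPM in control after CD40L + IL-4. After LPS + IL-4 it summed to 158 to 173 CPM against 48.9 to 56.4 CPM. Thy1 and Lck were DE and higher in DKO in both cultures. Cd3e had no count in any control or DKO library of LPS + IL-4. After CD40L + IL-4 it had none in replicate 2 of either genotype, but was counted in replicate 1. DKO replicate 2 of LPS + IL-4 also had no count of Cd3d, Cd8a or Cd8b1. Of the B cell genes, Ms4a1 (-1.65), Pax5 (-0.94) and Cd22 (-0.67) were lower in DKO after CD40L + IL-4. The study sorted CD138- cells, and its flow cytometry found minimal formation of CD138+ plasmablasts after 48 h of CD40L + IL-4. It interprets the rise of Prdm1, Irf4 and Xbp1 there as an early sign of differentiation, without true plasma cells. The part of plasma cells or other cells in the changes of Itgal, Itgb1 and Itgb7 was not tested.

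The balance of RNA between the beta chains that pair with Itga4 differed with both stage and genotype. Within a library, the ratio of Itgb7 to Itgb1 per length was 9.40 and 11.5 in naive control cells, 8.77 to 10.4 in PU.1 cKO, 7.27 to 8.36 in SpiB KO and 5.07 and 5.15 in DKO. After CD40L + IL-4 it was 0.829 and 1.06 in control, 0.850 to 1.03 in PU.1 cKO, 0.852 to 1.68 in SpiB KO and 0.229 to 0.334 in DKO. After LPS + IL-4 the order turned, with 0.0718 to 0.125 in control, 0.0884 to 0.114 in PU.1 cKO, 0.222 to 0.287 in SpiB KO and 0.1503 to 0.168 in DKO. DKO was below control with no overlap in naive and CD40L + IL-4 cells and above it in LPS + IL-4. No test was made of these ratios, which do not depend on the scaling of a library.

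**Figure D5:**
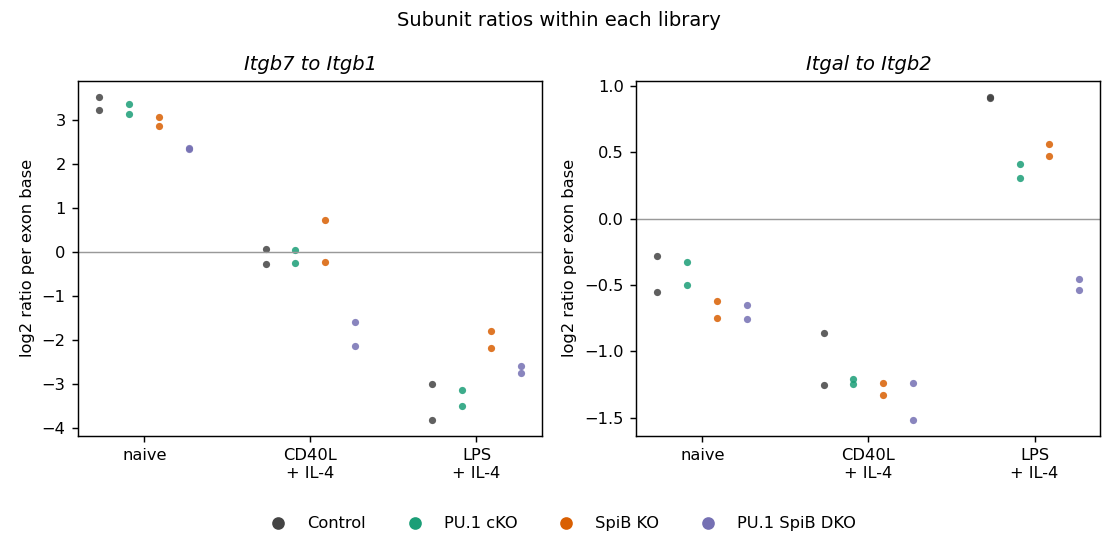
Log2 ratio of Itgb7 to Itgb1 (left) and of Itgal to Itgb2 (right), each per exon base, in each of the 24 libraries, by stage and coloured by genotype. The DKO points lie apart from control in Itgb7 to Itgb1 after CD40L + IL-4 (-1.85 against -0.10 on average) and in Itgal to Itgb2 after LPS + IL-4 (-0.50 against 0.91).

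No member passed the test of the interaction of both losses at any stage by edgeR without a block, where 0.936%, 1.17% and 1.48% of all genes did in naive, CD40L + IL-4 and LPS + IL-4 cells. At an unadjusted p under 0.05 there were 3 in naive cells (Itgal, Itgb2 and Itgb1), 3 in CD40L + IL-4 (Itgax, Itgb1 and Itgb7) and 2 in LPS + IL-4 (Itgal and Itgb7). DESeq2 called 1 of them, Itgb7 in CD40L + IL-4 (-1.64, adjusted p = 0.0103), and voom none. The edgeR fit of all 24 libraries called Itgb7 there too (-1.68, adjusted p = 0.0259). With the replicate number as block, edgeR called Itgal in LPS + IL-4 (above), where the numbers paired the libraries. At the other stages, where they did not, the block gave calls for Itgal, Itgb2, Itgax and Itgb1 in naive cells and Itgb7 in CD40L + IL-4 (adjusted p = 0.119). Naive DKO cells partly retained the floxed exon of Spi1, so the naive interaction sets different degrees of PU.1 loss against each other. Spi1 itself passed that test without a block (0.93, edgeR adjusted p = 0.0486).

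The difference between DKO and control was compared between stages in the fit of all 24 libraries, at an adjusted p under 0.15. Since naive DKO cells partly retained the floxed exon of Spi1, the stages differ in the degree of PU.1 loss too, and stage and degree cannot be told apart. Between CD40L + IL-4 and naive cells it differed for 2 of 7 (Itgal and Itgb2), where it did for 16.8% of all genes. Between LPS + IL-4 and naive cells it differed for 4 of 7 (Itgal, Itga4, Itgb1 and Itgb7), against 29.6%. Between both cultures it differed for 4 of 7 (Itgal, Itgb2, Itgb1 and Itgb7), against 28.6%. Itgal was the only member in all 3 of these comparisons, its effect being 0.15 when naive, -0.51 after CD40L + IL-4 and -1.04 after LPS + IL-4.

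Some other adhesion genes were also DE in DKO, where 14.1%, 13.7% and 13.6% of all genes were in naive, CD40L + IL-4 and LPS + IL-4 cells. After CD40L + IL-4, Pecam1 (-1.67), a junction molecule, the hyaluronan receptor Cd44 (-0.84) and the sheddase Adam17 (-0.72) fell, and Selplg (0.75), a selectin ligand, rose. In naive DKO cells Cd44 (1.18) and Selplg (1.10) rose, and in LPS + IL-4 Selplg rose (0.62). Of 19 other integrin chains, 9 to 11 were tested at a stage. None was DE in naive DKO by edgeR, 1 was in CD40L + IL-4, Itga6 (0.94), a laminin receptor chain, and 2 were in LPS + IL-4, Itga6 (2.54) and Itgb3 (1.32), all higher, beside 14.1%, 13.7% and 13.6% of all genes.

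The 17 genes that act on integrins from inside the cell include inhibitors as well as activators. In naive DKO the adaptors Fyb (2.90) and Skap1 (1.54) were higher and talin, Tln1 (-0.73), and Sipa1 (-0.71) lower. These 4 of 17 were DE, where 14.1% of all genes were. In CD40L + IL-4, 6 of 17 were, against 13.7% of all genes, 2 higher and 4 lower, the largest being Apbb1ip (-0.93), which links Rap1 to talin, and Tln1 (-0.85). In LPS + IL-4, 5 of 16 were, against 13.6%, all higher, led by Rasgrp2 (1.497), an activator of Rap1, and Rap1a (1.15). Of 12 genes that act downstream of integrins, 2 were DE at each stage, a share close to those of all genes (14.1%, 13.7% and 13.6%). They were Ptk2b (-0.94) and Vcl (0.73) in naive cells, Ptk2 (-1.05) and Parvg (-0.76) in CD40L + IL-4 and Nedd9 (1.56) and Zyx (0.80) in LPS + IL-4. Among 8 ligands, Cdh1 rose in naive DKO (4.02), Spp1 rose in both cultures (1.71 with CD40L, 3.90 with LPS), and Icam1, the ligand of LFA-1, fell in LPS + IL-4 (-0.97). Over the list of 17, activators and inhibitors together, the median in DKO was -0.08, 0.05 and 0.34 in the order of stages. That of all genes was 0.00, 0.00 and 0.01.

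PU.1 and SpiB bind the core GGAA, most often within GAGGAA. RefSeq promoters (250 bases before to 50 after a start, GRCm38.p6) were at hand for 5 of the 7, those of Itgam, Itgax, Itga4, Itgb1 and Itgb7. That of Itgb7, from 102231886 to 102232185, lies inside the span of the gene (102215994 to 102233405, minus strand). It is therefore not at the outermost start of Itgb7. GGAA, on either strand, is in 96% of 32851 promoters of this length and in all 5. GAGGAA, which contains it, is in 28.3% of them and in 3 of the 5, Itgam, Itgb1 and Itgb7, and GAGGAAGT is in 3.2% and in Itgb7. The windows around the matches are shown in the direction of the gene, with the motif or its reverse complement in capitals.
Itgam, chr7:128062545-128062572, plus strand: gttttctcccgGAGGAAggctacagagg
Itgam, chr7:128062614-128062641, plus strand: ctcatagctttTTCCTCatacttctctg
Itgam, chr7:128062661-128062688, plus strand: gccttggtggcTTCCTCaaagtgtctgt
Itgb1, chr8:128685634-128685661, plus strand: gacgcggcgcgGAGGAAtgcgtttccgg
Itgb7, chr15:102231917-102231946, minus strand: cagggtgtgtcACTTCCTCctctgctgcct
These are matches of letters and not measured sites of binding.

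Over the 24 libraries, the genes most like each member in log2 CPM were found among 13684 genes. Itgb7 was most like Cd38 (Pearson r = 0.992), Itga4 most like Tsc22d3 (0.986), Itgax most like Runx2 (0.989), Itgb1 most like Slc39a4 (0.970), Itgb2 most like Ptms (0.961), Itgal most like Arhgap24 (0.956) and Itgam most like Ccdc71l (0.857). The points share 3 stages, which set most of the variation, so these values are a description of the profile.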

How the data were processed

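RNA-seq was made with a TruSeq RNA kit from mouse lymph node B cells, as 24 libraries in 12 groups of 2 biological replicates. Per the labels and the study's methods, the authors aligned the reads to GRCm38 (mm10) by Subread and, from the reads that mapped uniquely, counted genes over RefSeq exons with featureCounts to give the deposited raw counts (27179 genes, 517 of them with an Entrez ID but no symbol, which were kept). Quantile-normalized log2 RPKM were deposited for each library too, and were used only for the expression threshold and for the order of levels. How the counts of genes that share reads were split is not given in the sources used here. The culture of the libraries labelled only as activated was taken from the extraction protocol, which is the same text for all samples.

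Counts were tested with edgeR 4.0.16 (R 4.3.3): a filter of 0.5 CPM or more in 2 or more libraries, TMM factors, and the quasi-likelihood test within a stage (8 libraries), or over 24 libraries for stages and for differences between stages. The deposited counts were not changed. DESeq2 1.42.0 and voom with limma 3.58.1 were alternatives, with RLE factors, no filter, an adjusted p under 0.05, each library left out, a replicate block, no RPKM threshold and a fit of all libraries. The fits were tested on simulated data. RPKM were computed from counts and GENCODE vM21 exon lengths. P-values rest on the spread between libraries within groups, shared over the groups of a fit and across genes.

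The members, lists and the rule for naming genes were chosen with earlier results of these data known. All 7 members, Spi1 and Spib are named, and from the lists the 2 DE genes with the largest fold change in DKO at each stage. The number of DE genes in DKO is given for other integrin chains, genes that act from inside the cell and downstream genes. It is not given for other adhesion genes and ligands. Others named from the lists, with the marker genes given beside Itgax and the windows shown, were chosen after their values were seen. Libraries of a group differed by more than counting noise. Same-numbered libraries deviated together in LPS + IL-4 (correlations of 0.299 to 0.405 between genotypes), but not in naive cells (0.0525 to 0.200) or CD40L + IL-4 (-0.0545 to 0.204). The pairing comes from the data, since the labels give only a number. Some genes of the lists are not reported here.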

Additional observations from a re-analysis of the deposited data

Results flagged for a closer look

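For 10 results the DKO effect on a member differed between stages by the test of the difference itself (edgeR, 24 libraries, adjusted p under 0.15). The differences are given on the log2 scale as the later-named stage subtracted from the first. Naive DKO cells partly retained the floxed exon of Spi1, so the differences from naive cells also compare degrees of PU.1 loss, and both cannot be told apart.

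Itgal differed in all 3 pairs of stages: by -0.64 between CD40L + IL-4 and naive (edgeR adjusted p = 0.0136), by -1.26 between LPS + IL-4 and naive (edgeR adjusted p = 3.02e-05) and by -0.62 between LPS + IL-4 and CD40L + IL-4 (edgeR adjusted p = 0.0151), and each was kept with any library left out. Itgb1 differed by -0.93 between LPS + IL-4 and naive (edgeR adjusted p = 8.79e-04) and by -1.05 between LPS + IL-4 and CD40L + IL-4 (edgeR adjusted p = 8.69e-04), since its rise was seen in naive and CD40L + IL-4 cells. Itga4 differed by 0.87 between LPS + IL-4 and naive (edgeR adjusted p = 0.0230).

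Itgb7 differed by 1.42 between LPS + IL-4 and CD40L + IL-4 (edgeR adjusted p = 0.0183), its fold against control being 0.84 and -0.66 there. Its difference of 0.83 between LPS + IL-4 and naive (edgeR adjusted p = 0.137) was lost in 7 of the 8 fits that left out a library. Itgb2 differed by -0.60 between CD40L + IL-4 and naive (edgeR adjusted p = 0.0285) and by 0.47 between LPS + IL-4 and CD40L + IL-4 (edgeR adjusted p = 0.0648), and the latter was lost in 4 of 8 such fits, those without replicate 2 of control or of DKO in either culture.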

How the results depend on the processing

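Of 64 member results with an adjusted p under 0.15, some were called and others fell short of the fold or RPKM threshold. None changed direction under any alternative. The status, called or not called, was the same under every alternative for 47, which include results that were never called. Over all alternatives, 722 values kept their status, 38 lost a call and 9 gained one. The number of members called in naive cells moved for DKO against SpiB KO, from 0 to 1 with voom, and for the interaction, from 0 to 2 without the filter on low counts and to 4 with the replicate block. In CD40L + IL-4, DKO against control went from 1 to 2 with DESeq2, without the filter, with the replicate block and in the fit of all 24 libraries. DKO against PU.1 cKO there went from 2 to 0 at an adjusted p under 0.05, and the interaction from 0 to 1 with DESeq2, with the block and in the fit of 24, and to 2 without the filter. In LPS + IL-4, PU.1 cKO went from 0 to 1 in the fit of 24, DKO against PU.1 cKO from 1 to 0 with voom, in the fit of 24 and at an adjusted p under 0.05, and the interaction from 0 to 1 without the filter and with the block. For the DKO effect between CD40L + IL-4 and naive the number rose from 2 to 4 without the filter and with the block. With each library left out, the numbers ran from 0 to 1 (naive PU.1 cKO, naive DKO against SpiB KO, naive interaction, CD40L + IL-4 PU.1 cKO, LPS + IL-4 PU.1 cKO and LPS + IL-4 DKO against PU.1 cKO), 1 to 3 (CD40L + IL-4 DKO), 0 to 2 (CD40L + IL-4 DKO against PU.1 cKO and interaction), 1 to 2 (CD40L + IL-4 DKO against SpiB KO, LPS + IL-4 DKO against control and against SpiB KO), 2 to 4 (DKO effect between CD40L + IL-4 and naive), 2 to 3 (naive DKO against PU.1 cKO), 5 to 6 (control LPS + IL-4 against CD40L + IL-4), 3 to 4 (DKO effect between LPS + IL-4 and naive) and 3 to 6 (DKO effect between both cultures). The order of levels in control was that of the deposited log2 RPKM for 7 of 7 members in naive and CD40L + IL-4 cells and for 4 in LPS + IL-4. There Itgb1 and Itgal changed places, and Itgax had no deposited log2 RPKM and so no rank. The cause of the exchange was not tested.

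Of the interactions, which were past no threshold, that of Itga4 in naive cells and those of Itga4, Itgam and Itgb1 in LPS + IL-4 changed sign when a library was left out. The numbers of genes called over the whole table moved more. The interaction in naive cells ran from 35 to 1413 genes and in LPS + IL-4 from 54 to 1286, both highest with the replicate block. In LPS + IL-4, where the numbers paired the libraries, the block changed the call of no member but Itgal in the interaction, and in the stage comparison it made the fall of Itga4 between both cultures -0.60 (edgeR adjusted p = 0.00679), a call the fit without it did not make. Depth limits Itgam in every library and Itgax in the cultures, where a few counts decide the value.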
